A study of Mus musculus with 9 samples.

Results

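The genes described here are 44 genes of ribosome biogenesis and RNA polymerase I, the enzyme that transcribes ribosomal RNA. They were given as a list of symbols and were taken from the count table by symbol. Where a symbol stood on several entries, the entry with the most counts was used. All 44 were among the 25757 entries of the table, and all 44 were among the 12185 genes that passed the filter on low counts. They were measured by RNA-seq in mouse CD4+ T cells that were activated in culture and treated with acacetin, a natural flavone, to find out which genes it changes. Cells with 0, 5 and 10 µM acacetin made up 3 libraries each, 9 in all.

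All libraries came from wild-type (WT) cells, all were activated on plates coated with antibody to CD3 and CD28 at 5 µg/ml and all were collected on day 3. The activating stimulus is therefore common to every group, but the degree of activation need not be. The paper reports that acacetin lowered the share of cells with surface markers of activation and inhibited proliferation. The part of such a difference in the levels given here was not tested. Per the methods, naive CD4+ T cells were purified from spleen and lymph node of mice without disease, and the study used male BALB/c mice. The labels call the replicates biological, but neither they nor the methods say that each came from a separate animal or culture, so the p-values measure the spread between these libraries. The libraries held 19972618 to 23873709 counts at 0 µM, 19664981 to 24410715 counts at 5 µM and 20022480 to 22210543 counts at 10 µM. All 10 markers of CD4+ T cells, Cd4 and Cd3e among them, stood above 10 CPM in every library, where CPM is a count scaled to a common library size. Of the markers of other blood cells, 4 of 4 for B cells, 2 of 2 for NK cells, 3 of 4 for macrophages, 3 of 4 for neutrophils, 1 of 2 for CD8 T cells and 1 of 4 for erythroid cells averaged below 1 CPM in every group. The same held for 2 of 4 stromal and endothelial, 2 of 7 lung and 6 of 7 liver markers. A pair of libraries stood apart. The 10 µM replicate 1 library had a summed level of 112 CPM for the lung markers, 23.0 CPM for the erythroid markers and 11.5 CPM for the macrophage markers. No other library exceeded 39.1, 1.77 and 2.02 CPM. The 5 µM replicate 2 library had 23.8 CPM for the liver markers, where the others had 2.16 CPM or less. The summed lung markers ranged from 24.99 to 32.9 CPM at 0 µM, from 33.7 to 35.3 CPM at 5 µM and from 38.8 to 112 CPM at 10 µM, and Ager alone, one of them, averaged 24.1, 28.5 and 36.0 CPM in that order. Their part in the results was not tested, and the counts of the 44 genes are also given without both libraries.

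Ribosomes are made in the nucleolus, where RNA polymerase I transcribes one long precursor of ribosomal RNA. Small nucleolar ribonucleoproteins of the box C/D and box H/ACA kinds methylate and pseudouridylate that precursor. Large sets of assembly factors cut, fold and load it with ribosomal proteins into a small and a large subunit. A T cell that leaves rest after stimulation through its antigen receptor enlarges its nucleoli and raises this programme before it divides. The transcription factor MYC, which binds the E-box CACGTG, is known to drive many of its genes.

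The promoters of the genes are shown because they are a feature of the genes that the list did not use. RefSeq promoter sequences of the mouse build GRCm38.p6, the build before the one used for the counts, were at hand for 39 of the 44 genes. Fbl, Npm1, Rrp12, Bop1 and Rrs1 were not in that table. In the window from 250 bases before to 50 bases after the annotated start, CACGTG, which reads alike on both strands, was found in 9 of the 39 promoters (23.1%), against 2187 of 27025 genes in the whole table (8.09%). In the 250 bases before the start alone it was found in 2 of 39 (5.13%), against 6.86% of all genes in that window. Most of the matches of the 44 genes thus lay in the first transcribed bases. The median GC content of the 39 promoters was 58.3%, against 53.3% for all genes. Shown first are the 250 bases before the start of Ddx21 and Nop56, 2 genes described below that hold no match, and of Rrn3 and Nop2, the genes with a match there. CACGTG is in capitals.
Ddx21 (chr10:62602299-62602548, - strand): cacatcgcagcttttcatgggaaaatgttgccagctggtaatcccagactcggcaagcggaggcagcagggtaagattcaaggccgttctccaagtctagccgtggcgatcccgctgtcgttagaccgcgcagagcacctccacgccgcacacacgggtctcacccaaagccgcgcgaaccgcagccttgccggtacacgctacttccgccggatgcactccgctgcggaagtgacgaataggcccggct
Nop56 (chr2:130274162-130274411, + strand): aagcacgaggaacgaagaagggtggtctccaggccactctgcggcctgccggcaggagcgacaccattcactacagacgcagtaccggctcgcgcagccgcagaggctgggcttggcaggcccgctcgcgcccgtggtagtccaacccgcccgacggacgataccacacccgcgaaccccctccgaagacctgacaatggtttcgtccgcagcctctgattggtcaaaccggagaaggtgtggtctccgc
Rrn3 (chr16:13780449-13780698, + strand): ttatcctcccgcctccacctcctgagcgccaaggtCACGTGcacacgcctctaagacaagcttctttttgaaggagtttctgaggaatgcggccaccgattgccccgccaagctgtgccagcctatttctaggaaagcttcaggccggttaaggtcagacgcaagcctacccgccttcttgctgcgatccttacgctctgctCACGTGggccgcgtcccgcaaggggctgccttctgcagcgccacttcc
Nop2 (chr6:125131633-125131882, + strand): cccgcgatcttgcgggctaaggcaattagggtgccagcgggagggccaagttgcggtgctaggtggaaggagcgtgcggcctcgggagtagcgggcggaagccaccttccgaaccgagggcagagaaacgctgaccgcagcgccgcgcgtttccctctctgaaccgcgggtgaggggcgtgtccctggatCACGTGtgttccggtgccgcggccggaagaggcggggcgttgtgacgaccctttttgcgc
Counted from the first base of the match to the start, the matches began 215 and 48 bases before the start of Rrn3 and 60 bases before that of Nop2. Next are the matches after the start in the other 7 genes, with their neighbouring bases. They began 3 bases after the start in Pes1, 16 in Utp4, 18 in Wdr43, 25 in Tsr1, 29 in Ltv1, 38 in Utp20 and 41 in Mybbp1a.
Pes1 (chr11:3963965-3963994, + strand): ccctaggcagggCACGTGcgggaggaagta
Utp4 (chr8:106893643-106893672, + strand): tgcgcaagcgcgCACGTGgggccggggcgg
Wdr43 (chr17:71616220-71616249, + strand): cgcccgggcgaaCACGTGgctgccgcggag
Tsr1 (chr11:74898092-74898121, + strand): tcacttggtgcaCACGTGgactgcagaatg
Ltv1 (chr10:13193092-13193121, - strand): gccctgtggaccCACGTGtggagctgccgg
Utp20 (chr10:88826765-88826789, - strand): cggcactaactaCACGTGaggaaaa
Mybbp1a (chr11:72441355-72441376, + strand): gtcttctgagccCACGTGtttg
A match describes the letters in this window and is not a measured binding site.

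With acacetin, most of these transcripts were lower by small amounts, and none was called higher. At 10 µM compared with 0 µM acacetin, 36 of the 44 genes were lower and 0 higher at an adjusted p under 0.05 by edgeR's quasi-likelihood test. Among all 12185 genes, 23.6% were lower and 23.8% higher. At 5 µM compared with 0 µM, 28 were lower and 0 higher, against 16.8% and 16.3% of all genes. At 10 µM compared with 5 µM, 12 were lower and 0 higher, against 4.09% and 4.92%. No gene of the 44 was higher in any of the 3 comparisons even at an unadjusted p under 0.05, and DESeq2 also called 0 higher. The comparisons of 10 and 5 µM share the same 3 control libraries at 0 µM, so their counts are not independent of each other. Since these are bulk samples, less RNA of a kind per cell and fewer cells that carry it cannot be told apart.

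The median log2 fold change of the 44 genes was -0.20 at 10 µM and -0.14 at 5 µM against 0 µM, with the median of all genes at 0.00 in both. All 44 genes had a fold change below 0 at 10 µM, with a range of -0.38 to -0.04. At 5 µM the range was -0.26 to 0.07. None of the 44 passed both the test and a fold change of 1.5 in any comparison. Among all genes 7.5% did at 10 µM against 0 µM, 3.38% at 5 µM against 0 µM and 0.345% at 10 µM against 5 µM. In 36 of the 44 genes (81.8%) every library at 10 µM lay below every library at 0 µM, against 27.1% of all genes. The same held for 33 genes (75%) at 5 µM against 0 µM, where it held for 23.4% of all genes, and for 17 genes (38.6%) at 10 µM against 5 µM, where it held for 12.6%. The smallest count of any of the 44 in any library was 639, for Polr1e.

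Taken as a sum, the 44 genes made up 1.21% of all counts at 0 µM (SD 0.00902, n = 3), 1.11% at 5 µM (SD 0.00239, n = 3) and 1.06% at 10 µM (SD 0.0193, n = 3). In the single libraries their share was 1.22, 1.20 and 1.21% at 0 µM, 1.11, 1.12 and 1.11% at 5 µM and 1.04, 1.05 and 1.08% at 10 µM. The 3 groups did not overlap, and the spread was widest at 10 µM. There, replicate 3 lay above the group mean in 31 of the 44 genes and replicate 2 in 11 of the 44, while in the other 7 libraries 19 to 24 genes lay above. Replicate 1 at 10 µM, the library with lung and erythroid transcripts, lay above the mean in 21.

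**Figure D1:**
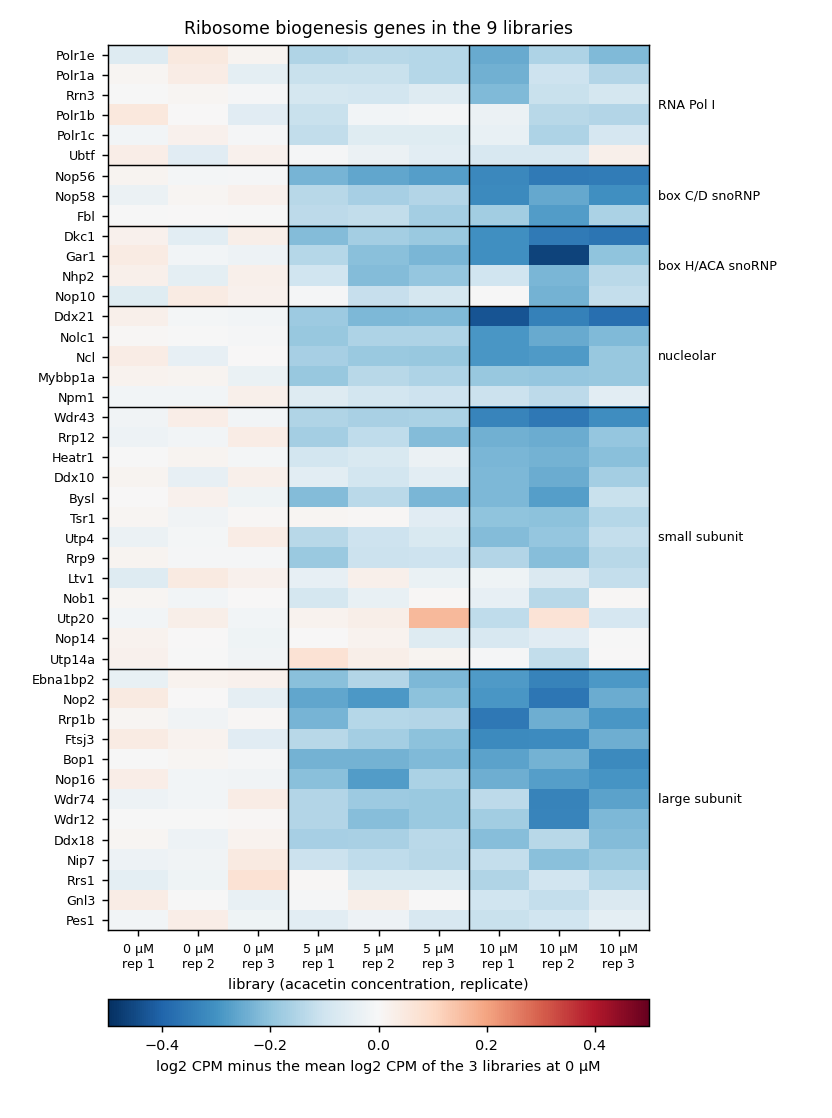
Level of each of the 44 genes (rows, by role) in each of the 9 libraries (columns), as log2 CPM minus the mean log2 CPM of the 3 libraries at 0 µM. Most rows are blue at 5 µM and darker blue at 10 µM, and the rows of Nob1, Nop14 and Ubtf stay pale throughout.

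By their calls the genes fell into 5 patterns. Nop56, Nop58, Dkc1, Ddx21, Wdr43, Rrp1b, Ftsj3 and Ebna1bp2, 8 genes, were lower in all 3 comparisons. For Nop56, Rrp1b and Ebna1bp2 the call between 10 and 5 µM was lost in most of the other settings tried, as given below. A further 20 were lower at both concentrations against 0 µM but were not called between 5 and 10 µM. Heatr1, Ddx10, Tsr1 and Gnl3, 4 genes, were lower at 10 µM against both 0 and 5 µM and were not called at 5 µM. Polr1b, Rrn3, Pes1 and Rrs1, another 4, were lower only at 10 µM against 0 µM. The remaining 8, Polr1c, Ubtf, Nop10, Nop14, Utp14a, Utp20, Ltv1 and Nob1, were called in no comparison.

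**Figure D2:**
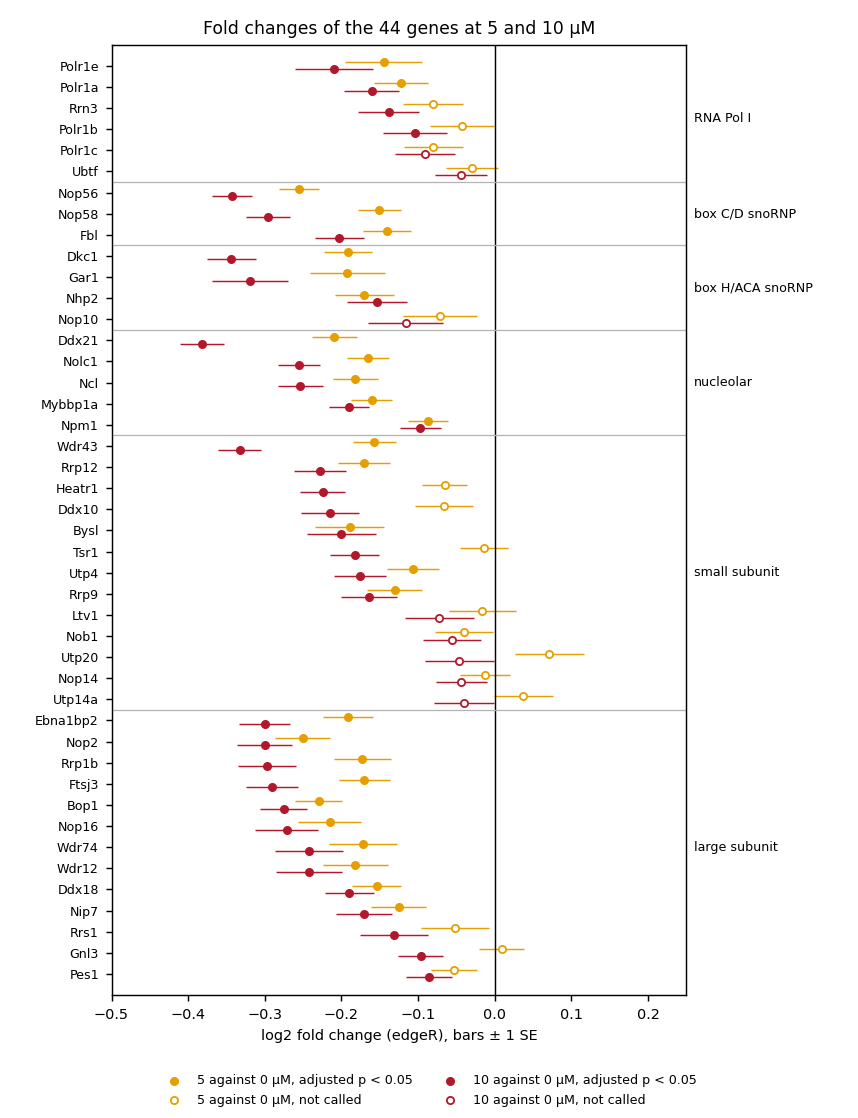
Log2 fold change of each gene at 5 µM (orange) and 10 µM (red) against 0 µM, by role, with bars of 1 SE from edgeR. Filled points have an adjusted p under 0.05, and all 44 red points lie left of 0, between -0.38 and -0.04.

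The 6 genes grouped under RNA polymerase I include the factors Rrn3 and Ubtf beside subunits of the enzyme. Of the 6, 4 were lower at 10 µM and 2 at 5 µM. Their median log2 fold change at 10 µM was -0.12, the smallest in size of the 6 role groups, a difference that was not tested. Polr1a, the largest catalytic subunit, was measured at 188, 191 and 179.9 CPM at 0 µM, 172, 172 and 169 CPM at 5 µM and 158, 173 and 168 CPM at 10 µM. Its libraries at 10 µM lay below those at 0 µM. The fitted difference on the log2 scale was -0.16 (SE 0.036, adjusted p = 0.00104) at 10 µM and -0.12 (SE 0.035, adjusted p = 0.012) at 5 µM. Polr1e, a subunit of the polymerase that is lowest in CPM among the 44, was measured at 36.6, 39.6 and 38.5 CPM at 0 µM, 34.4, 34.7 and 34.6 CPM at 5 µM and 32.1, 34.3 and 32.8 CPM at 10 µM. Its fold change was -0.21 (SE 0.050, adjusted p = 0.00201) at 10 µM and -0.15 (SE 0.050, adjusted p = 0.031) at 5 µM. Rrn3, which carries the polymerase to the ribosomal RNA promoter and has a pair of E-boxes in the promoter shown above, was measured at 81.0, 81.6 and 80.7 CPM at 0 µM, 76.3, 76.1 and 77.6 CPM at 5 µM and 69.5, 74.9 and 76.4 CPM at 10 µM. Both treated groups lay below the controls, but only the 10 µM comparison passed the test, with -0.14 (SE 0.040, adjusted p = 0.0077), against -0.08 (SE 0.039, adjusted p = 0.128) at 5 µM.

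Polr1b, the second catalytic subunit, was measured at 106, 102 and 97.9 CPM at 0 µM, 94.2, 101 and 101 CPM at 5 µM and 99.7, 92.5 and 92.0 CPM at 10 µM. These groups overlapped. Its fold change at 10 µM was -0.10 (SE 0.042, adjusted p = 0.0487). Ubtf, which binds along the ribosomal RNA genes and keeps them open, had 254 ± 8.51 CPM at 0 µM, 249 ± 3.98 CPM at 5 µM and 246 ± 10.4 CPM at 10 µM (SD, n = 3 each). Its groups overlapped, and the adjusted p at 10 µM was 0.304. Polr1c, a subunit shared with RNA polymerase III, had 81.6 ± 1.05 CPM at 0 µM, 77.1 ± 1.96 CPM at 5 µM and 76.6 ± 3.1 CPM at 10 µM (SD, n = 3 each). Its fold change of -0.09 (SE 0.039, adjusted p = 0.0654) at 10 µM missed the threshold. Several calls in this group changed when 1 library was left out. At 10 µM against 0 µM, Rrn3 had an adjusted p of 0.0514 without 10 µM replicate 1. Polr1b had one of 0.0603 to 0.205 without 0 µM replicate 1 or 2, 5 µM replicate 2 or 3, or 10 µM replicate 2 or 3, and Polr1c reached 0.0319 without 10 µM replicate 1. At 5 µM against 0 µM, Polr1a had 0.0697 without 0 µM replicate 2 and 0.0572 without 5 µM replicate 3. Polr1e had 0.0731 to 0.117 without any single 5 µM library or without 0 µM replicate 2 or 3 (all edgeR's quasi-likelihood test). DESeq2 on all libraries also called neither Polr1b at 10 µM (adjusted p = 0.088) nor Polr1e at 5 µM (0.112) against 0 µM.

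The genes described here include 3 for proteins of the box C/D particle, which guides methylation of ribosomal RNA. Their transcripts were all lower at both concentrations, with a median log2 fold change of -0.30 at 10 µM. Nop56, a core protein of the particle, was measured at 457, 449.7 and 451 CPM at 0 µM, 385, 378 and 374 CPM at 5 µM and 362, 354 and 355 CPM at 10 µM. The 3 groups did not overlap, and the fold change was -0.34 (SE 0.026, adjusted p = 4.89e-09) at 10 µM and -0.26 (SE 0.026, adjusted p = 6.29e-07) at 5 µM. Nop58, its partner in the core, was measured at 296, 304 and 307 CPM at 0 µM, 275, 269 and 273 CPM at 5 µM and 242, 253 and 244 CPM at 10 µM. It too fell in each step, by 0.15 at 5 µM against 0 µM (SE 0.028) and by 0.14 at 10 µM against 5 µM (SE 0.029, adjusted p = 0.00314) on the log2 scale. Fbl, the methyltransferase fibrillarin, was measured at 402, 403 and 402 CPM at 0 µM, 367, 369.7 and 357 CPM at 5 µM and 357, 332 and 360.4 CPM at 10 µM. Fbl fell by 0.20 at 10 µM (SE 0.031, adjusted p = 3.19e-05), and its libraries at 10 and 5 µM overlapped.

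Of the transcripts for the 4 proteins of the box H/ACA particle, which guides pseudouridylation, 3 were lower at both concentrations. Their median at 10 µM, over all 4, was -0.24. Dkc1, dyskerin, the pseudouridine synthase, was measured at 210.1, 199 and 211 CPM at 0 µM, 178, 184 and 182 CPM at 5 µM and 167, 162 and 160.4 CPM at 10 µM. It fell in all 3 comparisons, with -0.34 (SE 0.032, adjusted p = 5.75e-08) at 10 µM against 0 µM and -0.15 (SE 0.032, adjusted p = 0.00505) at 10 µM against 5 µM. Gar1, a small protein bound to dyskerin, was measured at 109.6, 106 and 105 CPM at 0 µM, 96.5, 92.3 and 91.0 CPM at 5 µM and 86.1, 77.2 and 92.7 CPM at 10 µM. Its fold change at 10 µM was -0.32 (SE 0.050, adjusted p = 3.18e-05), and its libraries at 10 µM spread widest of the 4, from 77.2 to 92.7 CPM. Nhp2, another core protein, was measured at 174, 165 and 174 CPM at 0 µM, 159.6, 147 and 149.6 CPM at 5 µM and 159.7, 146 and 155 CPM at 10 µM. The libraries at 10 and 5 µM overlapped, with -0.17 (SE 0.039, adjusted p = 0.00224) at 5 µM and -0.15 (SE 0.039, adjusted p = 0.00299) at 10 µM against 0 µM, and a fold change of 0.02 (SE 0.039, adjusted p = 0.849) between them. Nop10, the smallest protein of the particle, had 101 ± 3.74 CPM at 0 µM, 96.4 ± 3.86 CPM at 5 µM and 93.4 ± 7.62 CPM at 10 µM (SD, n = 3 each). Its adjusted p by edgeR at 10 µM was 0.0589, and it became 0.00474 without 10 µM replicate 1 and 0.0415 without 0 µM replicate 1.

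The transcripts of the 5 abundant nucleolar proteins were all lower at both concentrations, with a median of -0.25 at 10 µM. Ddx21, an RNA helicase that works on RNA polymerase I transcripts, had the lowest fold change of the 44 at 10 µM. It was measured at 581, 568 and 565 CPM at 0 µM, 504, 489 and 490.2 CPM at 5 µM and 423, 452 and 440.4 CPM at 10 µM. No group overlapped another, and the fold change was -0.38 (SE 0.029, adjusted p = 4.23e-09) at 10 µM, -0.21 (SE 0.029, adjusted p = 2.04e-05) at 5 µM and -0.17 (SE 0.029, adjusted p = 8.35e-04) between 10 and 5 µM. Ncl, nucleolin, which binds the precursor RNA and chromatin of the nucleolus, was measured at 2387, 2265 and 2334 CPM at 0 µM, 2072, 2046 and 2039 CPM at 5 µM and 1902, 1912 and 2044 CPM at 10 µM. It fell by 0.25 at 10 µM (SE 0.030, adjusted p = 1.08e-06), and its replicate 3 at 10 µM overlapped the range at 5 µM. Nolc1, a phosphoprotein that accompanies the small nucleolar particles, was measured at 380.3, 378 and 377 CPM at 0 µM, 332, 339.9 and 340.2 CPM at 5 µM and 309, 318 and 325 CPM at 10 µM. Its fold change was -0.25 (SE 0.028, adjusted p = 4.33e-07) at 10 µM, and between 10 and 5 µM it was -0.09 (SE 0.028, adjusted p = 0.0502), just outside the threshold although the libraries did not overlap.

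Mybbp1a, MYB-binding protein 1A, was measured at 794, 791 and 767 CPM at 0 µM, 687, 712 and 705 CPM at 5 µM and 687, 686 and 688 CPM at 10 µM. The libraries at 10 and 5 µM overlapped, with fold changes against 0 µM of -0.16 (SE 0.026, adjusted p = 1.16e-04) at 5 µM and -0.19 (SE 0.026, adjusted p = 8.93e-06) at 10 µM. Npm1, nucleophosmin, the histone chaperone of the granular nucleolus, was measured at 2190.5, 2191 and 2248 CPM at 0 µM, 2114, 2072 and 2054 CPM at 5 µM and 2052, 2018 and 2128 CPM at 10 µM. It had the smallest change of the 5, with -0.10 (SE 0.026, adjusted p = 0.00525) at 10 µM and -0.09 (SE 0.026, adjusted p = 0.0155) at 5 µM. The call at 5 µM was lost without 0 µM replicate 3 (adjusted p = 0.0837), 5 µM replicate 2 (0.0599) or 5 µM replicate 3 (0.0769). Npm1 has processed pseudogenes, and how reads that fit several copies were counted is not given in the sources used here, so its level is uncertain.

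**Figure D3:**
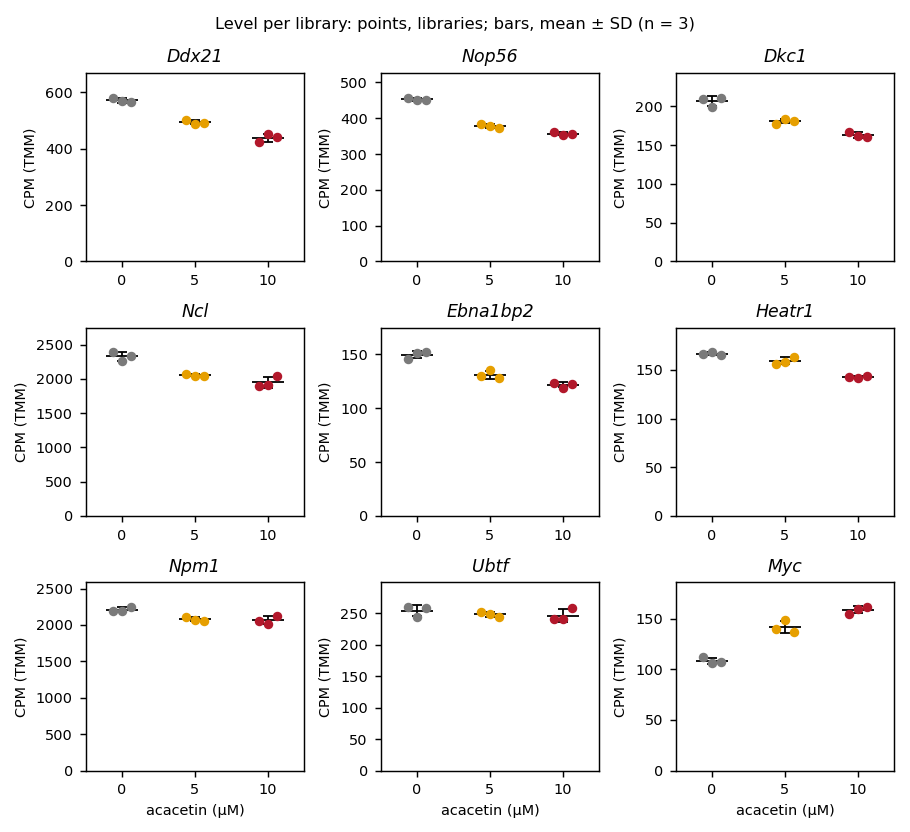
Level in each library (points) with the mean and SD of 3 libraries (bars), in CPM from 0, for 8 of the genes and for Myc, at 0, 5 and 10 µM. Ddx21 goes down by step to 423 to 452 CPM at 10 µM, Heatr1 passed the test at 10 µM only, Ubtf overlaps between all groups and Myc rises to 155 to 162 CPM.

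The small subunit factors were mixed. Of 13, 8 were lower at 10 µM and 5 at 5 µM, with medians of -0.18 and -0.07. Wdr43, a factor of the first complex that binds the growing precursor, was measured at 241, 249 and 241 CPM at 0 µM, 219.5, 218 and 219 CPM at 5 µM and 194, 191 and 197 CPM at 10 µM. It fell in every comparison, with -0.33 (SE 0.028, adjusted p = 1.95e-08) at 10 µM, -0.16 (SE 0.028, adjusted p = 2.68e-04) at 5 µM and -0.18 (SE 0.028, adjusted p = 5.99e-04) between them. Rrp12, an assembly and export factor, was measured at 127, 128 and 133 CPM at 0 µM, 115, 118 and 111 CPM at 5 µM and 109, 109 and 113 CPM at 10 µM. Most of its drop was present at 5 µM, with -0.17 (SE 0.034, adjusted p = 7.43e-04), against -0.23 (SE 0.034, adjusted p = 2.15e-05) at 10 µM.

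Heatr1, from the same early complex as Wdr43, was measured at 166, 168 and 166 CPM at 0 µM, 156, 158 and 163 CPM at 5 µM and 142, 141 and 144 CPM at 10 µM. It was lower mainly at 10 µM, with -0.22 (SE 0.030, adjusted p = 4.92e-06) against 0 µM and -0.16 (SE 0.030, adjusted p = 0.00199) against 5 µM, while at 5 µM against 0 µM the value was -0.07 (SE 0.029, adjusted p = 0.099). Tsr1, a GTPase-like protein of late cytoplasmic maturation, was measured at 156, 153 and 156 CPM at 0 µM, 156, 156 and 149 CPM at 5 µM and 135, 135 and 140.4 CPM at 10 µM. At 5 µM it overlapped the controls, with -0.01 (SE 0.031, adjusted p = 0.778), and at 10 µM it was -0.18 (SE 0.032, adjusted p = 1.01e-04). Ddx10, an RNA helicase, had the same calls, with 80.3 ± 1.95 CPM at 0 µM, 76.7 ± 1.2 CPM at 5 µM and 69.2 ± 1.9 CPM at 10 µM (SD, n = 3 each). Its fold change was -0.21 (SE 0.038, adjusted p = 1.37e-04) at 10 µM. Wdr43 and Tsr1 carry an E-box after the start and Heatr1 and Ddx10 do not.

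Bysl, Utp4 and Rrp9, also of small subunit assembly, were lower at both concentrations. Bysl, bystin, had a fold change of -0.20 (SE 0.045, adjusted p = 0.00119) at 10 µM, Utp4, of the first complex, -0.18 (SE 0.034, adjusted p = 3.16e-04), and Rrp9, a protein of the U3 particle, -0.16 (SE 0.037, adjusted p = 0.00107). At 5 µM the call of Utp4 was lost without 0 µM replicate 3 (adjusted p by edgeR = 0.111), 5 µM replicate 1 (0.105) or 5 µM replicate 2 (0.0669), and that of Rrp9 without 5 µM replicate 1 (0.0589).

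The other 5 small subunit factors were not called in any comparison. Nob1, the endonuclease that makes the last cut of the small subunit RNA, had 118 ± 0.964 CPM at 0 µM, 114 ± 3.69 CPM at 5 µM and 113 ± 5.81 CPM at 10 µM. Ltv1, a factor released late from the small subunit, had 60.1 ± 2.32 CPM at 0 µM, 59.4 ± 1.51 CPM at 5 µM and 57.2 ± 1.91 CPM at 10 µM. Nop14 had 132 ± 1.78 CPM at 0 µM, 131 ± 3.86 CPM at 5 µM and 128 ± 3.59 CPM at 10 µM (SD, n = 3 each). For these 3 all groups overlapped. Utp14a had 84.3 ± 1.2 CPM at 0 µM, 86.5 ± 1.8 CPM at 5 µM and 81.9 ± 3.87 CPM at 10 µM. Utp20, a large scaffold protein, had 162 ± 2.73 CPM at 0 µM, 171 ± 9.65 CPM at 5 µM and 157 ± 11.3 CPM at 10 µM (SD, n = 3 each). Both had positive fold changes at 5 µM, 0.04 and 0.07 on the log2 scale, with adjusted p by edgeR of 0.502 and 0.246. Utp20 was measured at 149, 170.0 and 153 CPM in the 3 libraries at 10 µM, and without the second of these its adjusted p by edgeR at 10 µM against 0 µM was 0.0347. Without the same library its fold change at 10 µM against 5 µM was -0.18 (adjusted p by edgeR = 0.00445), and with no filter on low counts it was -0.12 (adjusted p = 0.0163), so that Utp20 was called lower there in both settings.

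All 13 large subunit factors were lower at 10 µM and 10 of them at 5 µM, with medians of -0.24 and -0.17. Ebna1bp2, an early factor of large subunit precursors, was measured at 146, 151 and 152 CPM at 0 µM, 129, 135 and 128 CPM at 5 µM and 123, 119 and 123 CPM at 10 µM. It was -0.30 (SE 0.033, adjusted p = 4.77e-07) at 10 µM and -0.19 (SE 0.032, adjusted p = 1.61e-04) at 5 µM. Bop1, which with Pes1 and Wdr12 forms the PeBoW complex, was measured at 162, 163 and 162 CPM at 0 µM, 138, 138 and 139.6 CPM at 5 µM and 135, 138 and 130.1 CPM at 10 µM. Most of its drop was present at 5 µM, with -0.23 (SE 0.030, adjusted p = 1.20e-05), against -0.28 (SE 0.030, adjusted p = 5.49e-07) at 10 µM.

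Ftsj3, an RNA methyltransferase of the large subunit precursor, was measured at 223, 219.6 and 209 CPM at 0 µM, 197, 193 and 189 CPM at 5 µM and 174, 175 and 183 CPM at 10 µM. It fell in each step, with -0.29 (SE 0.033, adjusted p = 9.36e-07) at 10 µM against 0 µM and -0.12 (SE 0.034, adjusted p = 0.0298) at 10 µM against 5 µM. Nop2, a methyltransferase of the large subunit RNA with the E-box shown above, was measured at 173, 168 and 163 CPM at 0 µM, 140.1, 138 and 146 CPM at 5 µM and 137, 131 and 141 CPM at 10 µM. It was -0.25 (SE 0.036, adjusted p = 2.85e-05) at 5 µM and -0.30 (SE 0.036, adjusted p = 1.50e-06) at 10 µM. The libraries at 10 and 5 µM overlapped.

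The members of the PeBoW complex differed in size of change. At 10 µM Bop1 was -0.28, Wdr12 -0.24 (SE 0.043, adjusted p = 1.26e-04) and Pes1 -0.09 (SE 0.030, adjusted p = 0.0262). Differences between genes were not tested. Pes1 was called at 10 µM only, and that call was lost without 0 µM replicate 2 (adjusted p by edgeR = 0.122), 10 µM replicate 1 (0.0748) or 10 µM replicate 2 (0.0540). It was also lost with DESeq2 on 2 groups (adjusted p = 0.0708). Rrs1, which helps bring an RNA and protein complex into the large subunit, was -0.13 (SE 0.044, adjusted p = 0.0202) at 10 µM, and its call was lost without 0 µM replicate 3 (adjusted p by edgeR = 0.136), 10 µM replicate 1 (0.0562) or 10 µM replicate 3 (0.0561). DESeq2 gave Rrs1 an adjusted p of 0.052 on all libraries and 0.0765 on 2 groups. Gnl3, nucleostemin, a GTPase, had 202 ± 5.05 CPM at 0 µM, 204 ± 2.64 CPM at 5 µM and 189 ± 3 CPM at 10 µM (SD, n = 3 each). Its fold change was 0.01 (SE 0.030, adjusted p = 0.852) at 5 µM and -0.10 (SE 0.030, adjusted p = 0.0118) at 10 µM. Without 0 µM replicate 1 that adjusted p was 0.0689.

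The remaining 5 large subunit factors were lower at both concentrations. Their fold changes at 10 µM were -0.30 (SE 0.038, adjusted p = 3.37e-06) for Rrp1b, -0.27 (SE 0.041, adjusted p = 2.38e-05) for Nop16, -0.24 (SE 0.045, adjusted p = 1.80e-04) for Wdr74, -0.19 (SE 0.032, adjusted p = 7.36e-05) for the RNA helicase Ddx18 and -0.17 (SE 0.036, adjusted p = 7.05e-04) for Nip7. Rrp1b was also lower at 10 µM than at 5 µM, with -0.12 (SE 0.038, adjusted p = 0.0494), and the other 4 were not called there. At 5 µM against 0 µM the call of Nip7 was lost without 0 µM replicate 3 (adjusted p by edgeR = 0.0758).

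Between 10 and 5 µM the calls were the least stable. The 12 genes lower there became 7 without 10 µM replicate 1 or without any one of the 3 libraries at 5 µM, and 6 without both libraries that held transcripts of other tissues. Nop58, Dkc1, Ddx21, Wdr43, Heatr1 and Tsr1, 6 genes, kept their call without each single library and in every other setting tried. Nop56, Ddx10, Rrp1b, Ftsj3, Ebna1bp2 and Gnl3 did not. Of 19 settings, the call was lost in 15 for Ebna1bp2, 13 for Rrp1b and 12 for Nop56. For Gnl3 it was lost in 8, for Ddx10 in 5 and for Ftsj3 in 4. Beside Utp20, a call was gained there by Gar1 (adjusted p by edgeR = 0.0229), Ncl (0.0353) and Nolc1 (0.0443) without 10 µM replicate 3, and by Nolc1 (0.0392) without 10 µM replicate 2. Against 0 µM the count without both libraries was 35 at 10 µM, against 36 with them, and 27 at 5 µM, against 28 with them. Those counts were nearly as large without the libraries with lung, erythroid, macrophage and liver transcripts.

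To compare levels between genes, CPM was divided by the length in kilobases of the longest coding transcript. On that scale Npm1 stood highest, with 1353 CPM per kb at 0 µM, 1274 at 5 µM and 1265 at 10 µM. Fbl followed with 336, 305 and 292 CPM per kb, Ncl with 284, 250.3 and 238, and Nop56 with 241, 202 and 190.1, in the same order of groups. The lowest on that scale was Wdr12, with 6.46 CPM per kb at 10 µM and 7.65 at 0 µM, from a longest transcript of 10012 bases. Before division by length it had 76.6 CPM at 0 µM, above the 38.2 CPM of Polr1e. The longest transcript may not be the one these cells use. A gene with a shorter transcript in use would stand higher, which bears most on genes given a long one, such as Wdr12 and Ncl (8202 bases). Places in this order, the lowest included, are therefore not an established difference between genes.

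The genes moved together over the 9 libraries far more than within the groups. The median correlation of their log2 levels over all pairs of genes, 946 pairs, was 0.76 over the 9 libraries, with 98.0% of pairs above 0. With the group means removed it was 0.07, with 56.3% above 0, against a median of 0.00 for 1219 genes taken at even steps from all tested. The value over the 9 libraries contains the shift between the groups already given above, and it was not computed for other genes. These values share the same libraries and are given as a description.

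Other genes of the pathway were taken from lists written by role. In the lists of ribosome-related genes other than the 44, 163 genes were tested, and at 10 µM against 0 µM 77 were lower and 14 higher. At 5 µM against 0 µM 55 were lower and 7 higher, and at 10 µM against 5 µM 12 were lower and 2 higher. The shares at 10 µM against 0 µM were 47.2% lower and 8.59% higher, beside the 23.6% and 23.8% of all genes given above. At 5 µM against 0 µM they were 33.7% and 4.29%, beside 16.8% and 16.3% of all genes. In the comparison of 10 µM against 5 µM they were 7.36% and 1.23%, nearer to the 4.09% and 4.92% of all genes. Without 5 µM replicate 2 the 55 genes lower at 5 µM became 35, and the 12 lower at 10 µM against 5 µM were 4 to 7 without any one of the libraries other than 10 µM replicate 2. The 2 genes higher there became 1 without 10 µM replicate 3 or 5 µM replicate 3.

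Lists of assembly factors went mostly the same way as the 44. Of 45 other small subunit factors, 25 were lower and 1 higher at 10 µM. Lower were Pno1 at -0.39 (SE 0.035, adjusted p = 3.69e-08), the methyltransferase Dimt1 at -0.34 (SE 0.068, adjusted p = 3.99e-04) and Utp6 at -0.32 (SE 0.045, adjusted p = 9.52e-06). Rrp36 was higher at 0.20 (SE 0.058, adjusted p = 0.00768), with an adjusted p of 0.0585 without both libraries that held other tissues. Of 47 other large subunit factors, 24 were lower and 3 higher. Lower were Mrto4 at -0.39 (SE 0.048, adjusted p = 1.93e-06), the helicase Ddx31 at -0.36 (SE 0.084, adjusted p = 0.00172) and Rpf2 at -0.28 (SE 0.057, adjusted p = 4.42e-04). Zfp622 at 0.26 (SE 0.031, adjusted p = 1.53e-06) and Nop53 at 0.23 (SE 0.036, adjusted p = 3.60e-05) were higher. Of 10 genes listed under the small nucleolar particles and their assembly, 8 were lower and 0 higher. Among them were the ATPase Ruvbl1 at -0.35 (SE 0.035, adjusted p = 1.52e-07), Snu13 at -0.33 (SE 0.030, adjusted p = 5.05e-08) and Shq1, a chaperone of dyskerin, at -0.32 (SE 0.077, adjusted p = 0.00206). Of 15 genes of the RNA exosome, which trims the precursor, 9 were lower and 0 higher. They included the nuclease Dis3 at -0.33 (SE 0.038, adjusted p = 8.84e-07), Exosc7 at -0.33 (SE 0.054, adjusted p = 5.31e-05) and Exosc6 at -0.32 (SE 0.079, adjusted p = 0.00271). In these last lists 0 genes were higher at 10 µM also at an unadjusted p under 0.05 or by DESeq2.

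In the lists of transcription and host genes the shares lay nearer to those of all genes, 23.6% lower and 23.8% higher. They were 11.1% lower and 22.2% higher for other RNA polymerase I genes and 31.8% and 13.6% for RNA polymerase III. For the listed host genes of small nucleolar RNAs, which are all outside the 44, they were 20% and 33.3%. Of 9 other RNA polymerase I genes, 1 was lower and 2 higher at 10 µM. Taf1b was lower at -0.22 (SE 0.056, adjusted p = 0.00358). The termination factor Ttf1 at 0.28 (SE 0.060, adjusted p = 8.35e-04) and Taf1c at 0.14 (SE 0.053, adjusted p = 0.0368) were higher. The call of Taf1c was lost without any 1 library at 0 µM, or without 10 µM replicate 1 or 2, with adjusted p by edgeR of 0.0645 to 0.151. It was also lost with DESeq2 on all libraries (adjusted p = 0.133). Of 22 RNA polymerase III genes, 7 were lower and 3 higher. Maf1, a repressor of this polymerase, is counted in that list and among the 3 higher, and is given again below with the regulators. Gtf3c4 was lower at -0.24 (SE 0.050, adjusted p = 6.81e-04). Brf1, a subunit of its initiation factor, at 0.37 (SE 0.038, adjusted p = 2.31e-07) and Gtf3c1 at 0.23 (SE 0.031, adjusted p = 8.22e-06) were higher. Of 17 listed genes that host small nucleolar RNAs in their introns, 15 were tested, 3 were lower and 5 higher. Snhg15 at 0.68 (SE 0.050, adjusted p = 2.42e-09) and Snhg12 at 0.35 (SE 0.045, adjusted p = 3.09e-06) were higher, and Snhg8 at -0.29 (SE 0.050, adjusted p = 9.58e-05) and Snhg3 at -0.25 (SE 0.064, adjusted p = 0.00308) were lower. These genes host some of the small nucleolar RNAs that the box C/D and H/ACA proteins bind. Which of the 44 genes also host such RNAs was not examined, so the list does not stand for all host genes. The small RNAs themselves were not analysed here.

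**Figure D4:**
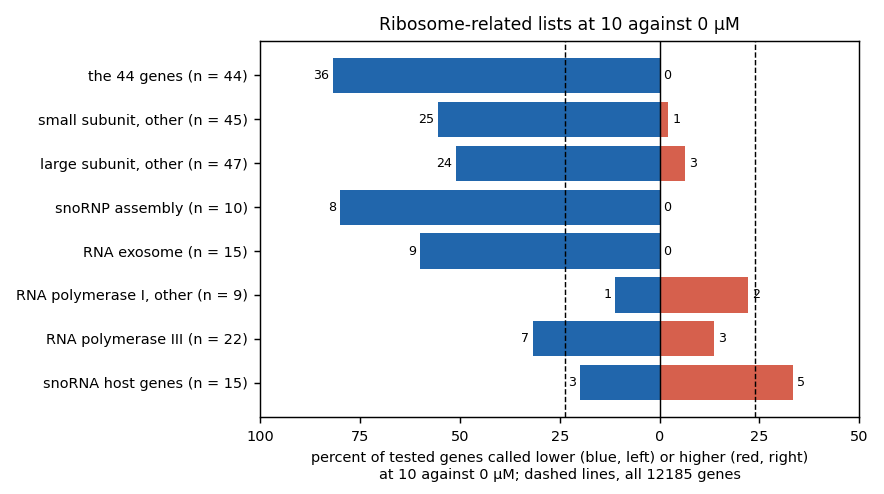
Share of tested genes lower (blue, left) and higher (red, right) at 10 µM against 0 µM for the 44 genes and for 7 further lists, with the number of genes at each bar. Dashed lines mark all 12185 genes, 23.6% lower and 23.8% higher, and the blue bars of the 44 genes, both assembly factor lists, the particle assembly genes, the exosome and RNA polymerase III pass the left line.

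Known regulators of the programme were set beside it. Myc was measured at 112, 106 and 107 CPM at 0 µM, 140.4, 148 and 138 CPM at 5 µM and 155, 159.7 and 162 CPM at 10 µM. It rose at both concentrations, with 0.55 (SE 0.036, adjusted p = 4.13e-10) at 10 µM and 0.39 (SE 0.036, adjusted p = 1.30e-07) at 5 µM. Among the 39 genes with a promoter in the RefSeq table, 9 held CACGTG and 30 did not. At 10 µM the median fold change was -0.18 with it (7 lower) and -0.21 without it (24 lower). At 5 µM the medians were -0.08 with it and -0.15 without it. These medians are a description with no test. Maf1, a repressor of RNA polymerase III, was measured at 102, 105 and 97.1 CPM at 0 µM, 116, 112 and 107 CPM at 5 µM and 117, 117 and 121 CPM at 10 µM. It had a fold change of 0.23 (SE 0.037, adjusted p = 6.37e-05) at 10 µM. Trp53, the p53 gene, was 0.14 (SE 0.029, adjusted p = 5.19e-04) at 10 µM. Mtor, the kinase that couples growth signals to ribosome synthesis, was -0.11 (SE 0.044, adjusted p = 0.0455) at 10 µM with overlapping groups. That call was lost, with adjusted p by edgeR of 0.0514 to 0.230, without any 1 library other than 10 µM replicate 2. DESeq2 on all libraries did not call Mtor either (adjusted p = 0.0823). Rptor, its partner, was 0.08 (SE 0.045, adjusted p = 0.179) and was not called. Transcript levels do not give the activity of these proteins, and the part of the regulators in the lower levels of the 44 genes was not tested.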

How the data were processed

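RNA-seq was analysed in 9 libraries of activated mouse CD4+ T cells, 3 each at 0, 5 and 10 µM acacetin, grouped by their labels. The authors deposited 1 table of estimated counts (expected counts) per gene symbol, with no scaling. The unit was read from the values, of which 24.1% are not whole numbers. The submitters' processing notes name GRCm39. The methods mention HISAT2 and StringTie in the paragraph on reads and DESeq2 for groups. No source used here names the counter, the annotation or the strand setting. Overlapping genes and near-identical copies may therefore share reads. Of the 25757 entries, 964 share 70 symbols, and the entry with the most counts was used for a symbol. There were 0 unused columns.

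Counts were rounded to whole numbers and analysed in R 4.3.3 with edgeR 4.0.16 and limma 3.58.1: filterByExpr at its defaults, TMM factors, the quasi-likelihood test on all 9 libraries with group as the only term, and Benjamini-Hochberg adjustment over 12185 genes. A gene was called at an adjusted p under 0.05. CPM used TMM library sizes. Transcript lengths came from GENCODE M21, joined by symbol. Values per library are given in each role group for the 2 to 4 genes of lowest adjusted p at 10 µM against 0 µM, and also for Npm1, the fifth nucleolar gene, which was added outside that rule. Uncalled genes are named. In each wider list up to 3 called genes with the largest change at 10 µM against 0 µM and a mean log2 CPM of at least 3 were named, and up to 2 that went the other way. The 44 genes, the role lists and the tests were chosen with earlier results of these data known. Alternatives were DESeq2 1.42.0, other size factors and filters, fits on 2 groups, a replicate block, thinned counts, leaving out each library, and leaving out both libraries with transcripts of other tissues. The common biological coefficient of variation was 3.65%. On simulated counts for 10 µM against 0 µM with 12048 genes, 82% of 50 genes changed 1.25-fold and 92% of 50 genes changed 1.5-fold were recovered. The median change of the 44 genes was smaller than 1.25-fold, and recovery of changes that small was not simulated. E-boxes were sought in RefSeq promoters of GRCm38.p6.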

Additional observations from a re-analysis of the deposited data

How the results depend on the processing

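The medians of the 44 genes moved little under the alternatives, from -0.20 to -0.19 at 10 µM and from -0.15 to -0.12 at 5 µM against 0 µM, and from -0.07 to -0.06 at 10 µM against 5 µM, and no value changed direction past its threshold. With a fold change over 1.5 also required, 0 of the 44 were called in any of the 3 comparisons. With each library left out in turn, the genes lower were 34 to 36 at 10 µM and 24 to 28 at 5 µM against 0 µM, and 7 to 13 at 10 µM against 5 µM. DESeq2 on 2 groups called 7 in that last comparison, and 6 were called without both libraries that held transcripts of other tissues. Of the genes called, 31 of 36 at 10 µM and 22 of 28 at 5 µM against 0 µM, and 6 of 12 between 10 and 5 µM, kept their call in each of the 19 alternatives. Of the 8 not called at 10 µM against 0 µM, 3 gained a call in at least 1. In the wider lists, the 12 genes lower at 10 µM against 5 µM were 3 with DESeq2 on 2 groups, 6 with DESeq2 on all libraries, 5 with edgeR on 2 groups, 4 without both libraries that held other tissues and 4 to 16 with each library left out. The 2 higher there were 1 without both libraries and 1 to 3 with each left out. The 14 higher at 10 µM against 0 µM were 9 with DESeq2 on 2 groups and 9 without both libraries, and the 55 lower at 5 µM were 35 to 61 with each library left out. The E-box share of 23.1% became 5.13% when only the 250 bases before the start were read, since that window leaves out most matches. Otherwise the cause was not tested.

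Replicate numbers were shared between groups. The deviations of same-numbered libraries from their group means correlated weakly, at -0.03 to 0.09, against -0.09 to 0.04 for libraries of unlike number. The highest value was between replicate 2 at 5 and 10 µM, a same-numbered pair, but not every library correlated best with its own number. Whether the replicates were paired was not tested. With the replicate block, 35 of the 44 genes were lower at 10 µM and 28 at 5 µM against 0 µM, and 8 at 10 µM against 5 µM. In the wider lists 7 were then lower at 10 µM against 5 µM.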
